A study of Mus musculus with 17 samples.

Results

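The genes described here are 9 markers of organs that form from the pharyngeal region of the embryo. They are Pth, Gcm2, Casr and Chga for the parathyroid gland, Foxn1 and Psmb11 for the thymic epithelium, Dntt and Rag1 for developing lymphocytes, and Tg for the thyroid. They are the rows with these symbols among the 54658 genes of the deposited table, and they were chosen by their CPM values in these libraries, which had been seen to differ between implants. Their levels are therefore a description and carry no test. The question asked of them is which implants held RNA of such tissue.

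The study measured RNA in mouse libraries from implants and from the hosts' own fat, and its title concerns leptin, complement factor D and osteoarthritis. Hosts of a type named LD, a code not spelled out in the labels, received mouse embryonic fibroblasts (MEF, cells grown from embryos) by injection under the skin over the sternum at 3 to 5 weeks of age. The cells came from leptin knockout (KO) or wildtype (WT) pups and grew into tissue resembling fat. At 16 weeks the medial meniscus of 1 knee was destabilized, which leads to osteoarthritis, and the mice were killed at 28 weeks.

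The KO implants are the libraries MKM2 (group described as male) and MKF1 and MKF2 (female). The WT implants are MWM1 and MWM2 (male) and MWF1 and MWF2 (female). All implant groups had the knee surgery. Endogenous fat is represented by EVM1 and EVM2 (visceral, surgery), EVFY1 and EVFY2 (visceral by the genotype label, code not spelled out), EVFN2 (visceral, no surgery) and ESM1 and ESM2 (subcutaneous, male, surgery). The host genotype is given as LD for the implant recipients and is not stated apart for the fat donors. The design text calls the hosts male, although 2 implant codes are described as female. A subcutaneous sample of the code ESF is not analysed here. The libraries labelled MKM1 (KO implant) and EVFN1 (visceral fat, no surgery) stand apart from their groups. Dbh, an enzyme of noradrenaline synthesis, had no read in MKM1 against 0.987 to 1.17 CPM in the other KO implants, and was at 0.870 CPM in EVFN1 against at most 0.0594 CPM in the other fat libraries. The value of each lies nearer to the other's group, so their labels may have been exchanged, which was not tested. The values printed for MKM1 and EVFN1 are as labelled, and both libraries are shown singly and left out of group means.

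The parathyroid, the thymus and the thyroid all arise from the foregut of the pharynx. The parathyroid and the thymus share a pouch, where Gcm2 marks the cells that become parathyroid and Foxn1 those that become thymic epithelium. The parathyroid releases parathyroid hormone when the calcium-sensing receptor reports low blood calcium. The thymic epithelium attracts lymphocyte precursors, which cut and rejoin their antigen receptor genes there with the recombinase of Rag1 and Rag2. Thyroid follicles store thyroglobulin, the precursor of thyroid hormone. None of these organs is a normal part of fat.

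Values are CPM, reads of a gene scaled to a library total of 1000000. Depth was 16444965 to 25805502 reads, so 1 read was worth 0.039 to 0.061 CPM, and a count of 0 allows up to 3 reads. The labels give the tissue as ganglia, with sensory ganglion as the cell type. The 8 adipocyte markers averaged 1738 to 2115 CPM across the KO implants. Across the WT implants they averaged 1105 to 2598 CPM, and in fat libraries 1937 to 3740 CPM. The 12 markers of sensory neurons averaged 0.912 to 2.42 CPM across the KO implants. Across the WT implants they averaged 3.53 to 4.77 CPM, and in fat libraries 0.549 to 1.31 CPM. These libraries therefore have the markers of fat, with little of those of sensory ganglia. Lep, the leptin gene targeted in KO donors, was at 1336 to 1726 CPM in the KO implants and at 806 to 2675 CPM in the WT implants. Its RNA does not separate the genotypes, and the allele is not given in the sources used here, so the labels KO and WT stand unchecked by it in every comparison below. Nothing in the labels says whether the libraries in a group are from different animals, so the p-values reflect library-to-library spread alone, and that may be technical.

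Promoters are shown for the hormone gene on which the comparison of implants turns and for the thymoproteasome gene found in the same implants as Foxn1. The sequences are from RefSeq (build GRCm38.p6), whose table holds 8 of the 9 genes, and run 5′ to 3′ on the gene's strand over the 250 bases before the start of transcription. Pth lies at chr7:113388574-113388823, minus strand, and capitals mark the letters TATAAA. Psmb11 lies at chr14:54625060-54625309, plus strand, and capitals mark GCGTC, which is GACGC on the other strand, the core of sites bound by FOXN1. The Psmb11 window lies inside the longer gene that GENCODE annotates there.
Pth: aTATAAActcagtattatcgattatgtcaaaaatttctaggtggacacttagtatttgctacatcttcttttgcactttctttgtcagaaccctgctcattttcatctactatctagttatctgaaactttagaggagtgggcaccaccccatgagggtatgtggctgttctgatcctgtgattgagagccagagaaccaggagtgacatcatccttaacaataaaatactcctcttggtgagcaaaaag
Psmb11: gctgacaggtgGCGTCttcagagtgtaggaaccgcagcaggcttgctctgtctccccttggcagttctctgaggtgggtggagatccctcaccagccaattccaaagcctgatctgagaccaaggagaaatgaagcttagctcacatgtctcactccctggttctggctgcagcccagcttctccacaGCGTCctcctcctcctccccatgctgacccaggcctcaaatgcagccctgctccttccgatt
The letters GACGC occurred in the Psmb11 window at bases -239 to -235 and -62 to -58 from the start, both times on the opposite strand. On either strand they were in 22.6% of the 32851 windows of that length in the table, and among the 8 windows found they were also in that of Chga. TATAAA in the Pth window lay at bases -249 to -244, and it was in 12.4% of all windows. The GCM core ATGCGGG, present in 1.19% of all windows, and the cyclic AMP response element TGACGTCA, present in 1.55%, matched none of the 8 windows. A match describes the letters in a window and nothing about the factor.

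The clearest division between the implants was in the parathyroid genes. Pth (chromosome 7, 113385580 to 113388570, minus strand, mm10), the hormone itself, had 0, 0 and 0.0859 CPM in the KO implants MKM2, MKF1 and MKF2, against 19.8, 17.7, 20.6 and 30.1 CPM in the WT implants MWM1, MWM2, MWF1 and MWF2. It was at 0 in the 7 fat libraries. Every WT implant had at least 314 reads of Pth, and the KO implants had 2 reads in all, both in MKF2. The WT implants averaged 22.0 ± 5.50 CPM (SD, n = 4). The KO level was 0.00144 of the WT level over summed reads (95% counting interval 0.000175 to 0.00522), and the WT level was at least 972-fold higher than in fat, where 3 reads summed over the 7 libraries set the floor. The intervals cover counting error only. MKM1 and EVFN1 also had 0 reads of Pth.

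Gcm2 (chromosome 13, 41101427 to 41111035, minus strand), the transcription factor without which the parathyroid does not form, was low but followed the same division. It had 0, 0.0483 and 0 CPM in MKM2, MKF1 and MKF2, against 0.564, 0.508, 0.850 and 1.03 CPM in MWM1, MWM2, MWF1 and MWF2. In fat it was at 0 except for 1 read in EVFY1 (0.0503 CPM), and it had 1 read in MKM1 and 0 in EVFN1. The libraries of KO and WT implants did not overlap, on 1 read and 54 reads in all, and a KO level of 0.0216 of the WT level has a counting interval of 0.000537 to 0.126.

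Chga (chromosome 12, 102554969 to 102565028, plus strand), chromogranin A, packs hormones into granules in the parathyroid and in other endocrine and nerve cells. It had 3.46, 0.483 and 3.05 CPM in MKM2, MKF1 and MKF2, against 55.6, 41.4, 88.0 and 73.8 CPM in MWM1, MWM2, MWF1 and MWF2. In fat the lowest, median and highest values were 0.0567, 0.594 and 1.32 CPM, with 0.661 CPM in MKM1 and 0.348 CPM in EVFN1. KO and WT implants did not overlap, and MKM2 and MKF2 were above every fat library while MKF1 lay among them. The WT mean was 64.7 ± 20.4 CPM (SD, n = 4) and the KO mean 2.33 ± 1.61 CPM (SD, n = 3).

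Casr (chromosome 16, 36493696 to 36562141, minus strand), the calcium-sensing receptor, is also used in the kidney and other tissues. It had 0, 0.0483 and 1.16 CPM in MKM2, MKF1 and MKF2, against 1.88, 4.74, 9.08 and 2.01 CPM in MWM1, MWM2, MWF1 and MWF2. In fat its median was 0.0594 CPM, with 0 as the lowest value and 2.96 CPM in ESM2 as the highest. MKM1 had 0.0551 CPM of Casr and EVFN1 had 0.0580 CPM. KO and WT implants did not overlap, but ESM2, a subcutaneous fat library with no read of Pth, exceeded MWM1 and MWF2. In bulk libraries fewer cells of a type and less RNA per cell cannot be told apart, for this gene and for all that follow.

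Together, the 4 parathyroid genes were lower in every KO implant than in every WT implant, and none of the other 5 genes was. Of the 17871 genes that reached 1 CPM in 2 or more libraries, 12.6% were lower in the KO implants without overlap. The comparison of WT implants with fat had 4 of the 9 genes higher without overlap (Pth, Gcm2, Chga and Dntt), where the share over all tested genes was 5.48%. The KO implants had 1 of the 9 above fat without overlap, Psmb11, on 1 read each in MKF1 and MKF2, where the share over all tested genes was 17.7%. None of the 9 lay below fat without overlap in either kind of implant, where the shares were 2.48% for WT and 8.44% for KO implants. Of the 9 genes, 6 passed the filter on low values, and Gcm2, Foxn1 and Psmb11 did not. Since the genes were picked for these levels, nothing is read from these counts.

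Within the 4 WT implants the parathyroid genes kept no common order. Pth and Gcm2 were highest in MWF2, at 30.1 and 1.03 CPM, while Casr and Chga were highest in MWF1, at 9.08 and 88.0 CPM. The highest and lowest WT values differed most for Casr and least for Pth when taken as a ratio. Per kilobase of exon, which allows genes to be set side by side, the level of Pth was 25.0 to 42.4 CPM per kilobase in the WT implants and that of Chga 15.0 to 31.9. Gcm2 was at 0.154 to 0.313 and Casr at 0.398 to 1.93 CPM per kilobase in the same libraries. Pth thus had the highest level of the 4 in MWM1, MWM2 and MWF2, and Chga in MWF1.

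**Figure D1:**
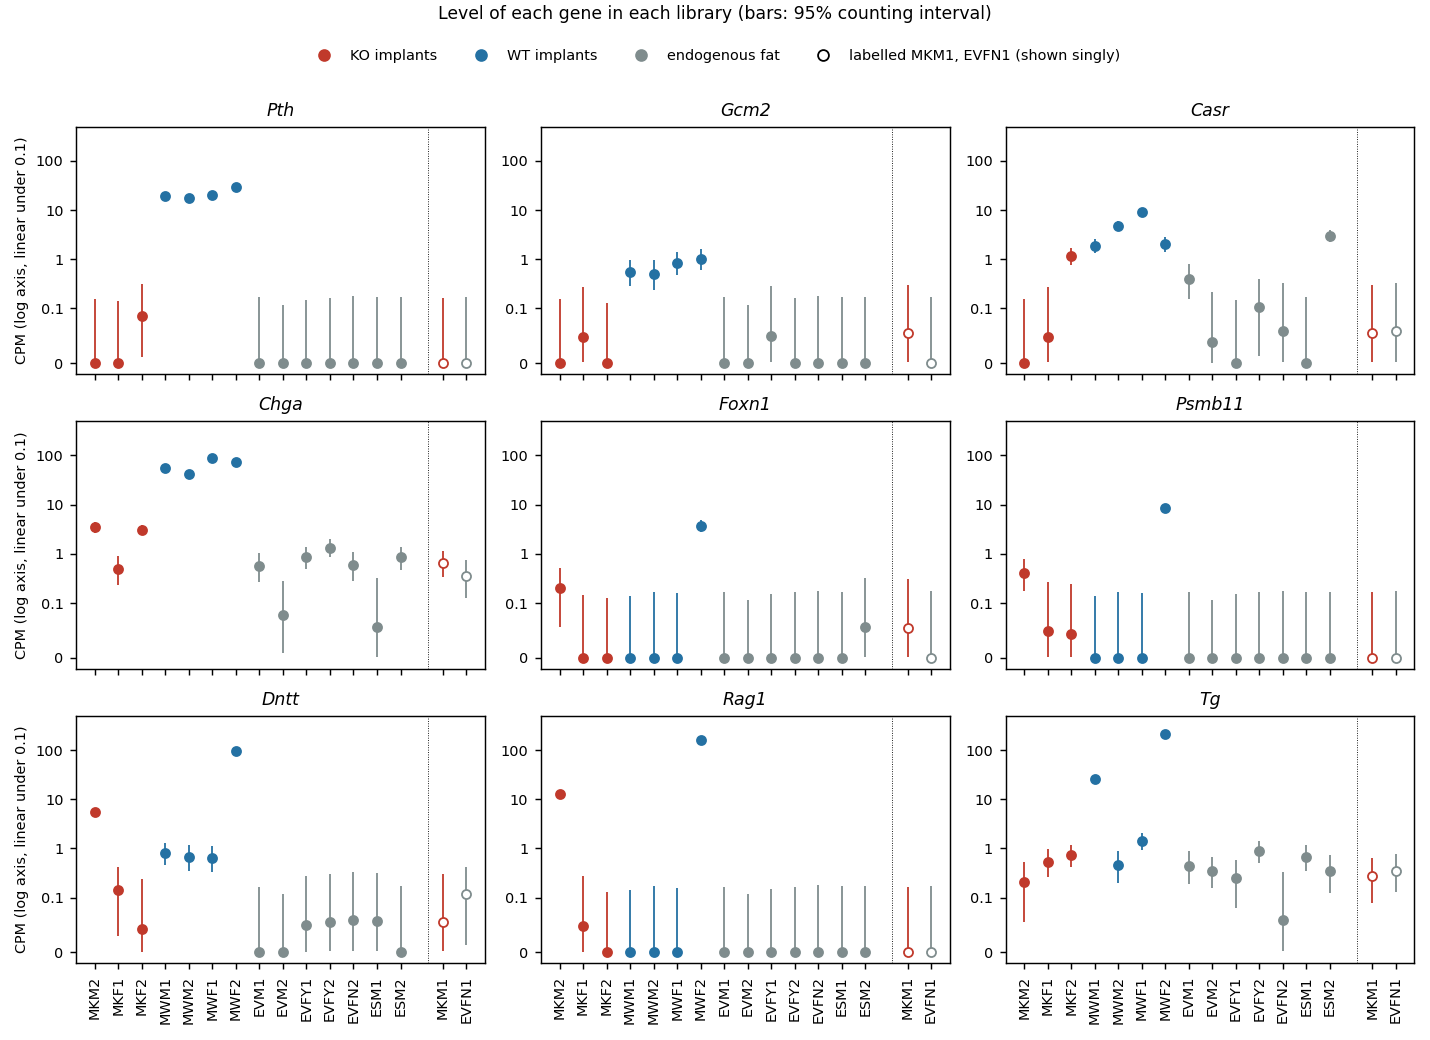
CPM of each of the 9 genes (one panel each, vertical axis logarithmic and linear under 0.1) in 3 KO implants, 4 WT implants and 7 endogenous fat libraries, with MKM1 and EVFN1 as open points at the right; bars are 95% counting intervals, or up to 3 reads where a library had 0. Pth, Gcm2, Chga and Casr lie higher in all 4 WT implants than in the KO implants, while Foxn1, Psmb11, Dntt and Rag1 stand out in MWF2 and, at lower levels, in MKM2.

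The thymic genes stood out in MWF2, a WT implant, and at lower levels in MKM2, a KO implant. Their relation to genotype was not tested. Foxn1 (chromosome 11, 78357577 to 78386558, minus strand), the factor that directs thymic epithelium, had 0.204, 0 and 0 CPM in MKM2, MKF1 and MKF2, against 0, 0, 0 and 3.71 CPM in MWM1, MWM2, MWF1 and MWF2. Psmb11 (chromosome 14, 54621433 to 54629556, plus strand), the thymoproteasome subunit of the thymic cortex, had 0.407, 0.0483 and 0.0429 CPM in the KO implants and 0, 0, 0 and 8.51 CPM in the WT implants, in the same order. MWF2 held 61 reads of Foxn1 and 140 of Psmb11, MKM2 held 4 and 8, and no other library had more than 1 read of either. In fat, Psmb11 had no read and Foxn1 had 1, in ESM2.

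The lymphocyte genes were high in the same libraries. Rag1 (chromosome 2, 101638282 to 101649501, minus strand), the recombinase subunit that cuts antigen receptor genes, had 12.8, 0.0483 and 0 CPM in MKM2, MKF1 and MKF2, against 0, 0, 0 and 159 CPM in MWM1, MWM2, MWF1 and MWF2. Dntt (chromosome 19, 41029275 to 41059525, plus strand), the transferase that adds bases at the joints, had 5.55, 0.145 and 0.0429 CPM in the KO implants and 0.799, 0.678, 0.638 and 97.0 CPM in the WT implants, in the same order. MWF2 was far above every other library for both genes and MKM2 came next. Rag1 had no read in fat, and Dntt was at 0 to 0.0594 CPM there. MKM1 and EVFN1 had no read of Rag1. Dntt was at 0.0551 CPM in MKM1 and at 0.116 CPM in EVFN1. Dntt but not Rag1 was above all fat libraries in MWM1, MWM2 and MWF1, on 12 to 17 reads each. Of the 6608 exon bases of Rag1, 80 are shared with another annotated gene on its strand.

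The KO and WT implants overlapped for all 4 thymic genes, so their group means describe MKM2 and MWF2. The mean of Rag1 was 4.28 ± 7.36 CPM in the KO implants (SD, n = 3) and 39.7 ± 79.5 CPM in the WT implants (SD, n = 4), and the mean of Dntt was 1.91 ± 3.15 and 24.8 ± 48.1 CPM in the same groups. Without MWF2, the WT implants hold no read of Foxn1, Psmb11 or Rag1, and without MKM2 the KO implants hold 0, 2 and 1.

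Other thymic genes were taken from lists chosen with earlier results known. With Foxn1 and Psmb11, 14 of 21 thymic epithelium genes were higher in MWF2 than in every fat library, and the other 7, Dll4, Trp63, Krt14, Krt8, Epcam, Ccl21a and Enpep, were not. With Dntt and Rag1, 15 of 17 thymocyte genes were, all but Notch3 and Cd1d1. Beside these counts, 39.4% of all 17871 tested genes were above the highest fat library in MWF2. The genes described next are mainly those with the highest ratio of an implant to fat. Prss16, a serine protease of the thymic cortex, was at 5.91 CPM in MKM2 and 75.0 CPM in MWF2, and at 0.584 CPM or less elsewhere. Tbata, named for thymus, brain and testes, was at 2.39 and 29.7 CPM in these libraries and at 0.626 CPM or less elsewhere. Fezf2, a factor of medullary epithelium, reached 3.71 CPM in MWF2 and 0.255 CPM in MKM2, below the 0.565 CPM of MWM2. Pax1, a pouch factor, was at 15.9 CPM in MWF2, on 53 reads in MKM2 and at most at 1.16 CPM elsewhere. Arpp21 was at 38.1 CPM in MWF2, and MKM2, with 53 reads, lay below the 3.73 CPM of MWM2. Chosen after their values were seen, Rag2, the partner of Rag1, had 11 reads in MKM2 and 181 in MWF2 and no read elsewhere, and Ptcra, the pre-T-cell receptor alpha chain, had 0.204 and 4.20 CPM, against at most 0.0565 CPM elsewhere.

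The levels of MKM2 were also set against those of MWF2. The CPM of MKM2 was 5.49% of that of MWF2 for Foxn1 (95% counting interval 1.45 to 14.8), 4.78% for Psmb11 (2.03 to 9.69), 5.72% for Dntt (4.67 to 6.95) and 8.04% for Rag1 (7.04 to 9.16). It was 7.87% for Prss16, 8.05% for Tbata, 5.09% for Rag2 and 4.85% for Ptcra. Over whole lists, counting every gene with more than 3 reads in MWF2, the shares were less alike. The median share was 18.2% over 21 thymic epithelium genes (4.78 to 87.6), 8.76% over 17 thymocyte genes (4.85 to 106), 9.12% over 17 T-cell genes (5.70 to 191) and 7.11% over 7 B-cell genes (3.44 to 26.5). Chga was at 4.69%. Pth had 0 reads in MKM2 against 495 in MWF2, an upper limit of 0.507% from 3 reads, and Tg was at 0.0983% (0.0268 to 0.252). These ratios compare 2 libraries, not 2 genotypes.

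MWF1, the other female WT implant, had many T-cell and B-cell genes at or above their level in MWF2, and no read of Rag1. Relative to MWF2, its CPM was 99.7% for Cd3e and 137% for Trac, parts of the T-cell receptor complex. Cd3e was chosen after its values were seen. For Rag1 it had 0 reads against 2614 in MWF2, for which 3 reads allow up to 0.1003%, and it had 0 reads of Rag2, Ptcra, Foxn1 and Psmb11. The median was 110% over the 17 T-cell genes (55.9 to 293), 192% over the 7 B-cell genes (149 to 328), 55.6% over the 17 thymocyte genes (0 to 155) and 42.2% over the 21 thymic epithelium genes (0 to 145). Igll1 and Vpreb1, parts of the surrogate light chain of B-cell precursors in bone marrow, were at 0.365 CPM or less in all 16 libraries. Vpreb3, of the same list of early B cells, was at 5.84 CPM in MWF1, 3.10 CPM in MWF2 and 1.26 CPM in MKF1, against at most 0.297 CPM in fat. These 3 too were chosen after their values were seen. MKF1 had more Cd3e than MKM2, at 4.49 against 2.95 CPM, with 1 read of Rag1 against 251.

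**Figure D2:**
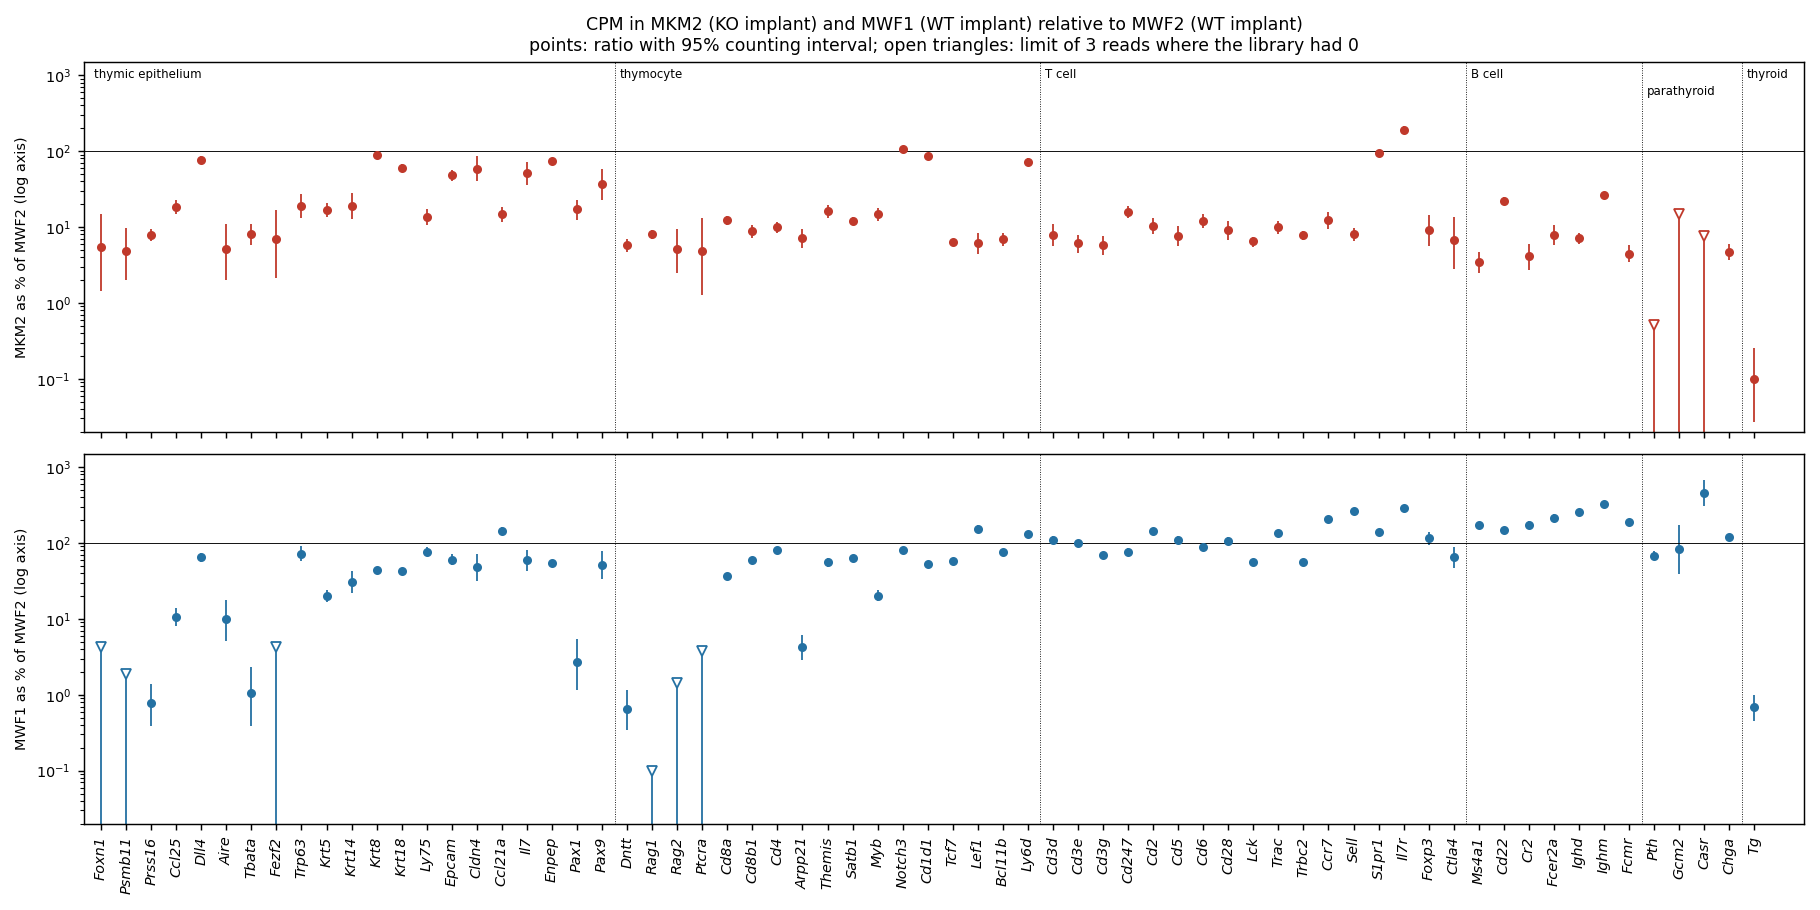
CPM of MKM2 (a KO implant, upper panel) and MWF1 (a WT implant, lower panel) as a percentage of that in MWF2 (a WT implant), per gene, on a logarithmic axis with 95% counting intervals; open triangles are the limit of 3 reads where a library had 0. All genes of the lists with more than 3 reads in MWF2 are drawn. In MKM2 Pth and Tg lie under 1% and the thymic epithelium genes range from 4.78% to 87.6%; in MWF1 the T-cell genes range from 55.9% to 293%, while Rag1, Rag2, Psmb11 and Foxn1 have no read.

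Tg (chromosome 15, 66670753 to 66850721, plus strand), thyroglobulin, had a pattern of its own. It had 0.204, 0.531 and 0.730 CPM in MKM2, MKF1 and MKF2, against 26.3, 0.452, 1.43 and 207 CPM in MWM1, MWM2, MWF1 and MWF2. In fat the lowest, median and highest values were 0.0594, 0.349 and 0.877 CPM, with 0.276 CPM in MKM1 and 0.348 CPM in EVFN1. MWF2 and MWM1 stood far above all others, MWF1 was above every fat library on 27 reads, and MWM2 and the KO implants lay within the range of fat. Sla, a gene of blood cells on the other strand within the Tg locus, shares none of the 8883 exon bases of Tg, and a predicted gene on that strand shares 112.

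Foxe1 and Pax8 were not ordered across the implants as Tg was. Foxe1, a factor of thyroid development, was at 0.531 CPM in MWF1 and 0.182 CPM in MWF2 and at most 0.0940 CPM elsewhere. Pax8, a factor of thyroid and kidney, was at 0.0531 to 0.730 CPM in the WT implants and was highest in the fat library EVM1, at 22.3 CPM. Foxe1 and Pax8 were chosen after their values were seen.

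The implants differed in which of these genes lay above fat, and MKF1 had none. A gene was counted where it was above the highest fat library on more than 3 reads. MKM2 had 5 of the 9 (Chga, Foxn1, Psmb11, Dntt and Rag1), MKF1 had 0 and MKF2 had 1 (Chga). MWM1 had 5 (Pth, Gcm2, Chga, Dntt and Tg), MWM2 had 5 (Pth, Gcm2, Casr, Chga and Dntt), MWF1 had 6 (Pth, Gcm2, Casr, Chga, Dntt and Tg) and MWF2 had 8, all but Casr. The libraries labelled MKM1 and EVFN1 had 0. Over all 17871 tested genes, the share above the highest fat library was 27.7% in MKM2, 28.3% in MKF1, 23.9% in MKF2, 16.6% in MWM1, 14.4% in MWM2, 32.6% in MWF1 and 39.4% in MWF2. Of the genes counted in a KO implant, Chga and Dntt were also counted in all 4 WT implants.

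Further genes of these organs were tested between groups with limma on log2(CPM + 0.5) across all 17871 genes, with Benjamini-Hochberg adjustment, and only a gene whose adjusted p lay under 0.05 is called higher or lower, or said to rise or fall. Between KO and WT implants 10.8% of all genes passed, 6.67% higher and 4.10% lower in KO. By edgeR on the recovered reads the split was 1276 higher and 469 lower, against 1192 and 732 by limma. The total of 1924 genes became 309 with MKM1 and EVFN1 included (1.72% of the genes then tested, 0.685% higher and 1.04% lower in KO). It was 825 without MWM2, 839 without MKF2, 1006 without MWM1 and 1187 without MWF1. Of the parathyroid list without the 4 genes above, 2 of 13 tested genes fell in KO and none rose. Gata3, a transcription factor that T cells use as well, fell, at 1.49 ± 0.770 CPM in KO (SD, n = 3) and 8.02 ± 7.64 CPM in WT implants (SD, n = 4), a log2 difference of -1.54 (SE 0.38, adjusted p = 0.0355), and so did Six4, by 1.33 on the log2 scale (SE 0.32, adjusted p = 0.0337). The median log2 difference of the list was -0.56, beside -0.06 over all genes, and with MKM1 and EVFN1 included 0 of its genes passed by limma.

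Of 13 granule genes, 1 fell in KO and none rose. This was Snap25, a protein of vesicle fusion in nerve and endocrine cells, with a difference of -1.10 (SE 0.29, adjusted p = 0.0424). Of 8 other thyroid follicle genes tested, 2 fell. Nkx2-1, a factor of thyroid and of lung, had 0.764, 0.483 and 0.0429 CPM in MKM2, MKF1 and MKF2, against 2.68, 1.98, 5.31 and 5.05 CPM in MWM1, MWM2, MWF1 and MWF2, a difference of -2.05 (SE 0.25, adjusted p = 0.00157). Slc5a5, the iodide pump, differed by -0.88 (SE 0.22, adjusted p = 0.0401), on at most 1.59 CPM. Of 3 C-cell genes, Calca fell, which codes for calcitonin in the thyroid and for a peptide of sensory neurons, by 1.00 on the log2 scale (SE 0.25, adjusted p = 0.0404).

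Of 17 thymic epithelium genes, 1 fell in KO (Ly75, a receptor also of dendritic cells, difference -1.14, SE 0.24, adjusted p = 0.0213), and of 13 thymocyte genes 2 fell (Satb1 and Themis, with adjusted p of 0.0320 and 0.0462). Rag2, Ptcra and Fezf2 of these lists did not pass the filter on low values, so the main fit did not test them. Of 17 T-cell genes 3 fell (Foxp3, Cd2 and Cd247), and of 7 B-cell genes none passed by limma. The calls for Nkx2-1, Gata3, Snap25, Slc5a5, Themis, Cd2 and Foxp3 were lost with edgeR. The calls for Gata3, Six4, Snap25, Slc5a5, Calca, Ly75, Satb1, Themis, Cd2, Cd247 and Foxp3 were each lost without MKF2 and without MWM2, among other libraries. Without either of these, the parathyroid, granule, thymic epithelium, thymocyte, T-cell and C-cell lists had 0 genes lower in KO by limma and the thyroid follicle list 1. Other losses raised the counts, to 4 for the parathyroid list without EVM1 or EVM2, to 5 for the granule and thymic epithelium lists without MKM2, and to 5, 10 and 5 for the thymocyte, T-cell and B-cell lists without MKF1.

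Some markers of lung and airway, of sensory neurons and of adrenergic cells moved with the same groups. The 10 lung and airway genes summed to 19.6 to 44.3 CPM in KO implants, 167 to 588 CPM in WT implants and 4.22 to 100.4 CPM in fat (100.4 in EVM1, with at most 9.50 CPM in the other 6), and 6 of the 10 fell in KO while none rose. None of these 10 was at 0 in any WT implant. Of 10 sensory neuron genes tested, 6 fell, and of 5 adrenergic genes 2 fell (Th, another enzyme of noradrenaline synthesis, and Dbh), calls that were lost with edgeR and without MKF1, MKF2, MWM2, MWF1 or MWF2. Th was at 0.290 to 0.386 CPM in the KO implants and 1.08 to 2.88 CPM in the WT implants. The 8 genes of the hair follicle, another tissue in which Foxn1 acts, summed to 1.28 CPM or less in all 16 libraries. The part of these cells in the levels of Chga, Casr, Calca and Nkx2-1 was not tested.

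Each kind of implant was also set against fat, and both comparisons use the same 7 fat libraries, so their counts are not independent. Of all genes tested, 24.3% passed between WT implants and fat, 17.9% higher and 6.41% lower in WT implants, on 3204 and 1145 genes. By median-of-ratios scaling these were 2585 and 1950, and by edgeR 2698 and 1575. The total of 4349 became 1946 with MKM1 and EVFN1 included (9.30% of genes higher and 1.54% lower), 1827 without MWM1, 2234 without MWM2 and 2854 without MWF1. The granule list had 10 of 13 higher and none lower, with Scg2, secretogranin II, at 2.52 ± 1.59 CPM in WT implants (SD, n = 4) and 0.0140 ± 0.0247 CPM in fat (SD, n = 7), a difference of 2.42 (SE 0.25, adjusted p = 0.000547). The thymocyte list had 11 of 13 higher and 1 lower (Notch3), the T-cell list 16 of 17 and the B-cell list 7 of 7 higher. Rag2 and Ptcra were not among these 13. Relative to MWF2, the 13 tested thymocyte genes ranged from 4.33% (Arpp21) to 155% (Lef1) in MWF1, with Cd4 at 82%. MWF1 had no read of Rag1, and the part of T-cell RNA in the thymocyte count was not tested. The thymic epithelium list had 6 of 17 higher, among them Pax9 (2.09, SE 0.26, adjusted p = 0.00115), but neither Prss16 nor Tbata. The thyroid list had 4 of 8 higher, with Nkx2-1 at 0 in the 7 fat libraries and Dio1 rising by 3.21 (SE 0.55, adjusted p = 0.00458). Foxe1 did not pass the filter on low values, and Tg lay within the range of fat in MWM2, at 0.452 CPM. The parathyroid list had 4 of 13 higher and 2 lower. It shares Pax1 and Pax9 with the thymic epithelium list, so the counts of these lists are not independent in any comparison. Single libraries moved these counts of higher genes. The granule count was 6 without MWM1 and 5 without MWF2, the thymocyte count 7 without MWM2, and the B-cell count 3 without MWM1, MWM2 or MWF1. The thyroid count was 2 without MWM1, MWM2 or MWF1, and the parathyroid count 1 without MWM1 and 2 without MWM2 or MWF2.

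In KO implants against fat, 18.0% of all genes were higher and 8.76% lower, and the total of 4789 became 3116 without MKF1. The granule list had 5 of 13 higher, with Scg2 at 1.57 ± 1.86 CPM in KO implants (SD, n = 3), a difference of 1.99 (SE 0.29, adjusted p = 0.00163) that was lost without MKM2. The thymocyte list had 5 of 13 higher, the thymic epithelium list 2 of 17 (Cldn4 and Pax9, neither passing without MKM2), and the parathyroid list 2 higher and 4 lower of 13. Rag2, Ptcra and Fezf2 were again not among the genes tested, and the part of T-cell RNA in the thymocyte count was not tested. Without MKM2 the higher counts were 1 for granules, 2 for thymocytes, 0 for thymic epithelium and 1 for the parathyroid. Without MKF1 the first 3 of these were 2, 3 and 1, and without MKF2 all 4 were 3, 8, 1 and 1, in the same order. With MKM1 and EVFN1 included, 0 genes passed in this comparison by limma (3140 at an unadjusted p under 0.05), so these counts rest on leaving those libraries out.

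**Figure D3:**
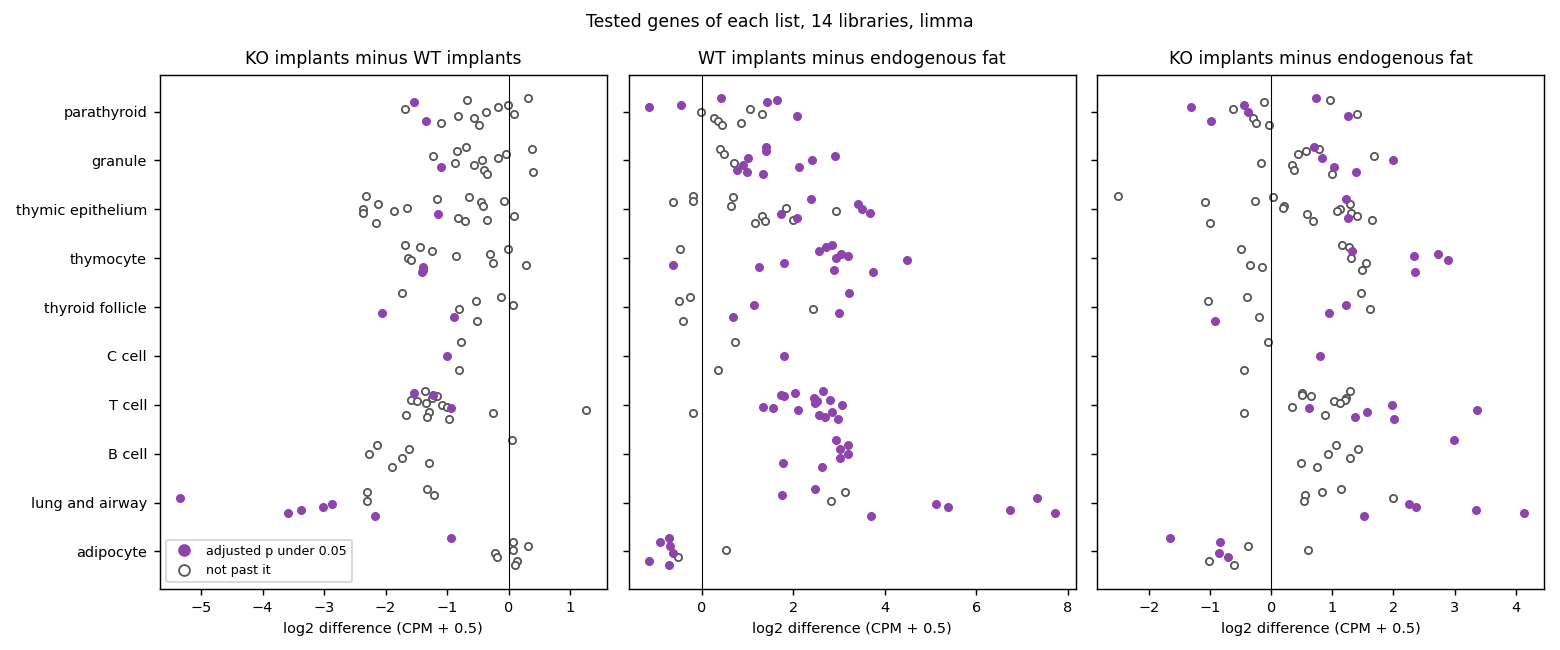
Log2 difference of each tested gene of 10 lists (rows; log2(CPM + 0.5) scale, 14 libraries) for KO minus WT implants, WT implants minus endogenous fat and KO implants minus endogenous fat, with genes past an adjusted p of 0.05 filled. Lung and airway genes lie farthest to the left in KO minus WT implants, and the granule list has 10 of 13 genes past the threshold in WT implants against fat (5 without MWF2), beside 5 of 13 in KO implants against fat (1 without MKM2).

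**Figure D4:**
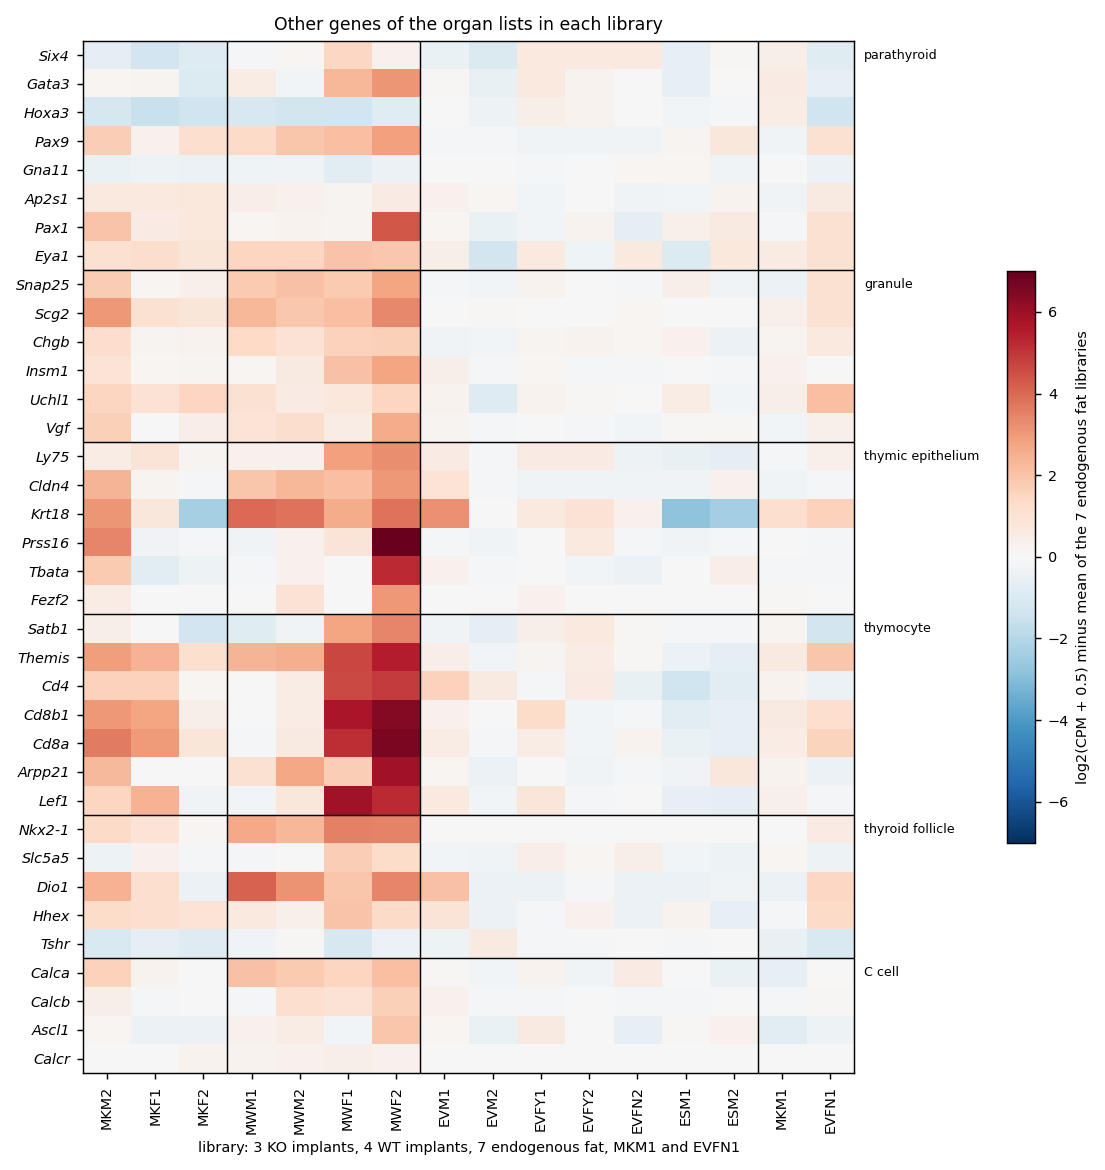
Other genes of the organ lists (rows) in each library (columns), as log2(CPM + 0.5) minus the mean of the 7 endogenous fat libraries, where red is above fat and blue below. Prss16, Tbata and Pax1 are strongest in MWF2 and next in MKM2. Nkx2-1 is above fat in all 4 WT implants and, at 0.764 and 0.483 CPM, in MKM2 and MKF1, while MKF2 has 1 read of it, under the floor.

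The genes whose pattern was most like that of a gene described here were found by Pearson's r over the 14 libraries of the fit, among 13306 genes that reached 5 CPM in 1 or more of them, as a description. For Pth they were Mbl2 (r = 0.96), Cxcl15 (0.94), Ppp1r3g (0.94), Nkx2-1 (0.94) and Scgb1a1 (0.94), and Cxcl15 and Scgb1a1 are known from lung and airway. For Dntt they were Prss16 (0.97), Rag2 (0.96), Tbata (0.95), Tdrd5 (0.95) and Cyp2c37 (0.95). For Psmb11 the nearest was Rag2, followed by Dgkeos (0.98), Igkv8-18 (0.98), Tbata (0.96) and Ighv13-2 (0.96). These patterns rest on few libraries, since MWF2 and MKM2 set those of Psmb11 and the WT implants that of Pth. For Tg no gene came as close, with Cbx1 at 0.88, Tardbp, Ephb1, Xrcc6 and Exosc7 at 0.86.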

How the data were processed

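The 16 RNA libraries carry 8 group codes with 2 libraries each. RNase H (RiboErase) removed ribosomal RNA, per the labels' protocols, and cDNA was made from random hexamers, while the labels also name polyA RNA. The submitters' processing notes name STAR 2.5.4, Subread 1.6.3 (featureCounts), cutadapt 2.7, FastQC 0.11.4 and build mm10. Settings, strand and annotation were not given in the sources used here, so reads of overlapping genes on opposite strands cannot be told apart. The authors deposited CPM values, which sum to 1000000 in each library. All nonzero values (100%, tolerance 0.001 reads) were whole multiples of 1 read, which returned the counts.

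Main tests were limma 3.58.1 in R 4.3.3 on log2(CPM + 0.5), with an intensity trend and robust variances, over 14 libraries, 8 groups and 17871 genes that reached 1 CPM in 2 or more libraries. Fold changes on this scale understate those of low genes. The fit had 6 residual degrees of freedom. P-values were adjusted by Benjamini-Hochberg over all tested genes, at 0.05. With MKM1 and EVFN1 left out, each of their groups had 1 library, which is assumed to vary like the other groups. Groups were averaged with equal weight within each side of a comparison, so MKM2 alone stood for the group MKM and EVFN2 alone for EVFN. The means printed with an SD weight libraries equally instead. Alternatives were pseudocounts of 0.1 and 2, no filter, median-of-ratios scaling, the replicate number as a block, edgeR 4.0.16 on the recovered counts, all 16 libraries, and each library left out in turn. The fits were also run on simulated counts, with 1 common spread and with changes placed only in well-covered genes. That run does not bear on calls in low genes. Counting intervals are exact at 95%, and they and the floor of 3 reads cover counting error only, since PCR reads without molecular identifiers are not independent molecules.

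The 9 genes and 16 lists were chosen with earlier results of these data known, and a few genes of the lists are not reported here and were left out of the list counts. Named list genes are the 4 with the smallest adjusted p past the threshold in each list and comparison, and for the organ lists also the 4 with the largest ratio of the highest implant to the highest fat library. Exceptions are marked, and Cd2, Cd247, Foxp3, Six4 and others named as the members of a small count follow from that count. Positions are from GENCODE M21 (mm10). No 2 libraries of a group agreed within counting noise (chi-square per degree of freedom 22.3 to 214). Replicate numbers did not pair libraries, as the deviations of libraries with the same number correlated at -0.444 to 0.336 between groups.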

Additional observations from a re-analysis of the deposited data

Results flagged for a closer look

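In 5 of the 9 genes, MWF2 stood far from the other 3 WT implants by Dixon's criterion. Its level was 3.71 CPM for Foxn1, 8.51 CPM for Psmb11, 97 CPM for Dntt, 159 CPM for Rag1 and 207 CPM for Tg. In the 7 fat libraries, ESM2 stood apart for Casr at 2.96 CPM and for Foxn1 at 0.057 CPM, and EVFY1 for Gcm2 at 0.0503 CPM. The last pair of values rest on 1 read each. In all, 8 of 15 sets of libraries stood out. Chance marks about 1 set in 20, but that rate is no measure here, since the genes were chosen for these values and the other 3 WT implants had no read of Foxn1, Psmb11 or Rag1.

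Dntt differed in direction between the male and the female groups. It was at 5.55 CPM in MKM2, above 0.799 and 0.678 CPM in MWM1 and MWM2, and at 0.145 and 0.0429 CPM in MKF1 and MKF2, below 0.638 and 97.0 CPM in MWF1 and MWF2. With 1 male KO library in the means, this difference was not tested.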

How the results depend on the processing

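With MKM1 and EVFN1 included as labelled, genes past the threshold by limma numbered 309 for KO against WT implants, 1946 for WT implants against fat and 0 for KO implants against fat (3140 at an unadjusted p under 0.05), in place of 1924, 4349 and 4789. With 1 library left out at a time the counts ran from 825 to 2350, from 1827 to 4827 and from 3116 to 5123 in the same order. The cause was not tested. The replicate block gave 1684, 4098 and 4576 genes, and whether replicate numbers pair the libraries was not settled. By edgeR the counts were 1745, 4273 and 4852. Under the other settings the 3 counts stayed within 1.5 times. For named list genes, 316 of the alternative values no longer passed and 8 newly passed. Ins2 in KO against WT implants ranged from -2.88 (without MKM2) to 0.015 (without MWM1) on the log2 scale, and Umod in KO implants against fat from -0.25 (without EVM2) to 0.070 (without EVM1) and 0.13 by edgeR, and neither was called in the main test. Without MWF2 the WT implants hold no read of Foxn1, Psmb11 or Rag1. Depth limits Gcm2, Foxn1 and Psmb11 most, since a few reads decide their low values.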

Other observations

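Hormone genes of the pancreatic islet were also present in most implants. Ins2, an insulin gene, was at 22.1, 1.64 and 0 CPM in MKM2, MKF1 and MKF2, at 27.7, 3.95, 3.13 and 6.81 CPM in MWM1, MWM2, MWF1 and MWF2, and at 0.0388 CPM or less in the 7 fat libraries. Ins1, the other insulin gene, was at 8.20, 0.628 and 0 CPM in the KO implants and at 12.6, 1.98, 0.850 and 1.09 CPM in the WT implants, in the same order. Unlike Pth, both were as high in MKM2 as in most WT implants. MKM1 had no read of Ins1 or Ins2. EVFN1 had no read of Ins1 and 4 reads of Ins2 (0.232 CPM). Ins2 rose against fat in KO implants (log2 difference 3.26, limma, adjusted p = 0.00615), a call that was lost without MKM2. Sst, somatostatin, was at 13.3 CPM in MWF1.

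The visceral fat library EVM1 had far higher levels of several epithelial genes than the other 6 fat libraries. Foxj1, a factor of motile cilia, was at 84.3 CPM, Epcam, an epithelial surface protein, at 43.5 CPM, Pax8 at 22.3 CPM and Kl, klotho, at 13.4 CPM, against at most 0.297, 1.31, 0.0570 and 0.114 CPM in those 6. These genes were chosen after their values were seen. Pth was at 0 in EVM1.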
